A study of Pan troglodytes with 38 samples.

Results

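The collagen genes were examined in RNA-seq libraries from post-mortem heart tissue of 38 chimpanzees. Members were all genes of the chimpanzee gene count table whose symbol is COL, a number, A and a number, and 43 of 31373 genes met that rule. They comprised 11 fibrillar, 9 network-forming, 10 FACIT, 4 beaded filament, 4 transmembrane and 2 multiplexin genes, the anchoring fibril gene COL7A1, and 2 others, COL26A1 and COL28A1. COL6A1 and the human orthologs were not analysed here. The animals came from research centres and, for 1 animal, a zoo, and no treatment was compared. All comparisons below are between attributes that the study's sample table gives for each animal. RNA of 17 animals was extracted on 4 earlier dates of 1 year (the earlier group). According to the paper, chimpanzee libraries published before were sequenced again, but its passages differ on how many these were. RNA of 21 animals was extracted in 2018, on 1 date, for new libraries (the 2018 group), so the year and the library preparation cannot be told apart. There were 22 females and 16 males (10 females in the earlier group and 12 in the 2018 group). Age at death was given for 34 animals and ranged from 10 to 57 years with a median of 32. Some animals were close relatives. The paper states that some came from laboratories and had been challenged with HBV or HCV. The fits modeled neither relatedness nor infection, and how infected animals fell over the extraction groups is not given here.

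Collagens are the main structural proteins of the extracellular matrix. Their chains wind into a helix and are secreted. Fibrillar collagens (types I, II, III, V, XI, XXIV and XXVII) pack into the fibrils that give tissue its tensile strength, and in the heart types I and III form most of the mesh around the muscle fibres. Network collagens build sheets: type IV is the backbone of the basement membrane around cardiomyocytes and vessels, and type VIII lies under vascular endothelium. FACITs (fibril-associated collagens with interrupted triple helices, types IX, XII, XIV, XVI, XIX, XX, XXI and XXII) decorate the surface of fibrils. Type VI forms beaded filaments that connect cells with the matrix. Cardiac fibroblasts are known as the main source of fibrillar collagen in the heart, while basement membrane chains are made by several cell types.

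The libraries held 43892814 to 132478050 counts in genes. RNA integrity (RIN) ranged from 2.5 to 8.4 with a median of 5.9, and 17.2% to 60.1% of counts fell in 13 mitochondrial genes. As a check of the labelled tissue, each of 10 cardiomyocyte markers was detected in every animal. Libraries 537 and Little_R stood apart in tissue markers. Their cardiomyocyte markers summed to 10486 and 6388 CPM against 12999 to 84229 in the other 36 animals, and their fibroblast markers to 4614 and 5526 CPM against 314 to 3170. Animal 549 stood apart in chamber markers: its atrial markers summed to 21548 CPM (median of all animals 272, next highest 8113 in 4X0354) and its ventricular markers to 199 CPM (median 12391, next lowest 1501). Several of the results below that rest on these 3 libraries are given without them too. In bulk tissue, fewer cells of a type and less RNA per cell cannot be told apart. Levels are counts relative to library size (CPM) scaled by the trimmed mean of M values (TMM) and are not per length, so they were compared between animals and not between genes.

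The collagen genes together took 616 CPM in the lowest animal (724), 1341 CPM in the median animal and 3415 CPM in the highest (537). Fibrillar genes summed to 81.5 CPM at the lowest, 353.8 CPM at the median and 1737 CPM at the highest (4x523). Network genes summed to 239, 447 and 985 CPM. The fibrillar class was thus spread more widely over animals than the network class, and its share of all collagen counts ran from 13.2% to 52.97%. The network share ran from 18.6% to 46.4%. FACIT genes summed to between 39.95 and 355 CPM (median 116), beaded filament genes to between 39.3 and 368 CPM (median 129) and the multiplexins COL15A1 and COL18A1 to between 126 and 466 CPM (median 226).

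Of the 43 genes, 15 reached 6 CPM in every animal, 30 reached it in at least 1 animal, and 14 had a median under 1 CPM. COL3A1, COL4A1, COL4A2 and COL18A1 had medians over 100 CPM. At the other end, 9 genes had no count in at least 1 animal. The type X chain COL10A1, made by hypertrophic cartilage, had a median of 0.0511 CPM. The type VI chain COL6A5 had a median of 0.0148 CPM and no count in 18 animals. COL17A1, the hemidesmosome collagen of epithelia, had no count in 11 animals. At such depths a level near 0 marks a detection limit and not absence.

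Type I and type III chains ranged widely. COL1A1 ran from 11.2 CPM (724) through a median of 52.5 to 428 CPM (4x523). COL1A2 ran from 23.8 through 96.6 to 508 CPM and COL3A1 from 18.8 through 115 to 611 CPM, and the lowest and highest animals were the same for all 3 genes. Type V chains, which join type I fibrils and limit their diameter, ranged from 6.67 to 141 CPM for COL5A1 (median 19.3) and from 6.63 to 96.2 CPM for COL5A2 (median 19.5). COL18A1, whose C-terminal fragment is endostatin, was far steadier, at 104 to 276 CPM with a median of 153.

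Some low genes stood out in single hearts. COL22A1, a FACIT of tissue junctions such as the myotendinous junction, was at a median of 0.207 CPM but at 13.8 CPM in 537, and the next animal was at 4.95 CPM. COL9A1, a cartilage FACIT, was at a median of 0.158 CPM and at 8.97 CPM in 549. COL6A6 was highest in that animal too, at 13.96 CPM against 3.81 CPM in the next. This was the animal with the highest atrial and the lowest ventricular marker sum, and the part of that in both peaks was not tested. COL12A1, a FACIT of dense connective tissue, reached 162 CPM in 537 against 81.9 CPM in the next animal. Animal 537 was highest for 9 of the 43 genes and among the highest 3 for 19, and 724 was lowest for 9. These 2 animals also differed in tissue markers, and the part of that difference in single genes was not tested.

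**Figure D1:**
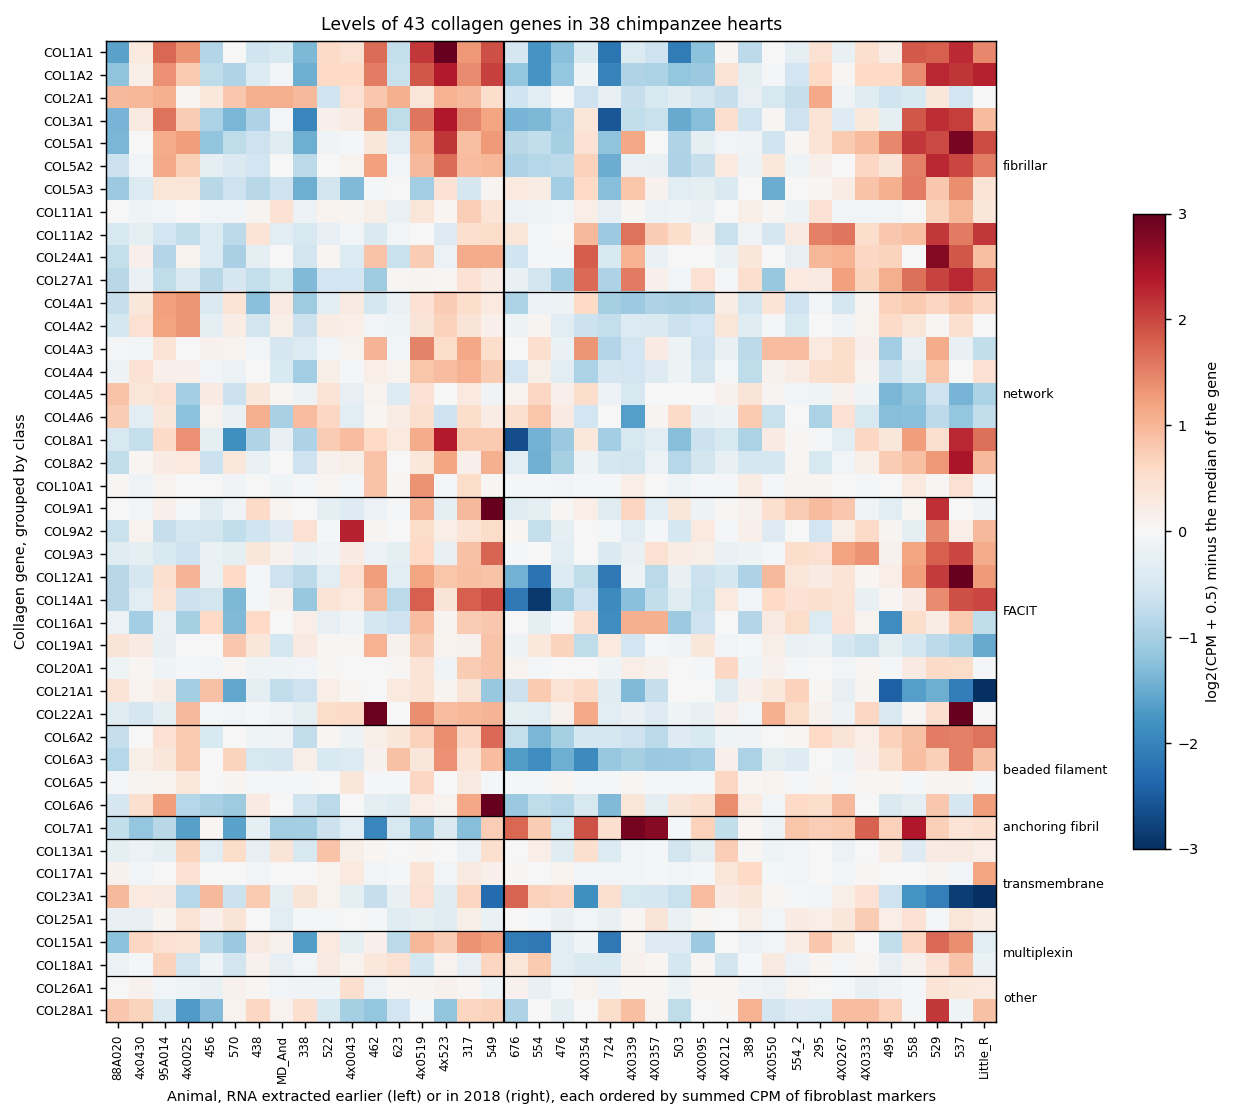
Level of each of 43 collagen genes (rows, by class) in each of 38 animals (columns; earlier group left of the line, 2018 group right, each ordered by the summed CPM of fibroblast markers), as log2(CPM + 0.5) minus the gene's median over animals, with colours held at -3 and 3. Types I, III and V darken together towards the right of each block. COL21A1, COL23A1 and COL4A5 turn blue at the right of the 2018 block, where 537 and Little_R lie. The right of the earlier block is mixed for these genes. COL7A1 is redder in 2018.

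Extraction year was compared first because it is the known batch of the series. COL7A1, the anchoring fibril collagen best known from the skin basement membrane, and the fibrillar genes COL27A1, COL11A2 and COL5A3 were higher in the 2018 hearts. COL2A1, the main cartilage fibrillar collagen, and the FACIT COL19A1 were lower. With edgeR's quasi-likelihood test and Benjamini-Hochberg adjustment over 15790 genes, with sex as covariate, 4 of 37 collagen genes tested were higher and 2 lower at an adjusted p under 0.05. Over all genes tested 11.2% were higher and 4.82% were lower, so the collagen shares lay near the background. The other 6 members (COL6A5, COL10A1, COL11A1, COL17A1, COL20A1 and COL26A1) did not pass the filter on low counts.

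COL7A1 (ENSPTRG00000014891) was at 6.51 to 44.6 CPM in the earlier group (median 14.7) and at 15.8 to 198 CPM in 2018 (median 43.7). All 21 animals of 2018 lay above the earlier median, and 9 of them above every earlier animal, although the groups overlapped. The log2 difference was 1.94 ± 0.31 (SE; edgeR adjusted p = 3.24e-05). COL2A1 (ENSPTRG00000004871) was at 0.0587 to 1.304 CPM in the earlier group (median 1.16) and at 0.0261 to 1.37 CPM in 2018 (median 0.114). The overlap came mainly from 2 hearts: 522 was the low animal of the earlier group and 295 the high animal of 2018. Its log2 difference was -2.15 ± 0.39 (SE; edgeR adjusted p = 0.000158).

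COL27A1 (ENSPTRG00000021286), a fibrillar collagen of developing cartilage, was at 2.06 to 8.21 CPM in the earlier group (median 4.06) and at 2.43 to 30.5 CPM in 2018 (median 8.37), with 11 of the 2018 animals above all of the earlier group. The log2 difference was 1.34 ± 0.26 (SE; edgeR adjusted p = 0.000464). COL11A2 (ENSPTRG00000018033) had medians of 0.881 and 2.01 CPM, ranges of 0.514 to 2.06 and 0.315 to 7.06 CPM, and a log2 difference of 1.37 ± 0.29 (SE; edgeR adjusted p = 0.00119). For both genes the 2018 group was the wider, and its low end reached into the earlier range. COL5A3 (ENSPTRG00000010454), the third type V chain, had medians of 15.5 and 26.96 CPM, ranges of 7.97 to 30.97 and 7.91 to 67.9 CPM, and a log2 difference of 0.76 ± 0.22 (SE; edgeR adjusted p = 0.0171). COL19A1 (ENSPTRG00000018327) had medians of 1.16 and 0.864 CPM, ranges of 0.564 to 2.66 and 0.0357 to 1.94 CPM, and a log2 difference of -0.73 ± 0.25 (SE; edgeR adjusted p = 0.0388). Both groups overlapped widely here. The COL19A1 call was lost on leaving out any of 17 animals (317, 338, 462, 4X0267, 4X0333, 4X0339, 4X0354, 4x0430, 4x0519, 4x523, 529, 537, 549, 554_2, 558, 570 or 676), with a log2 difference between -0.82 and -0.62 over all animals left out. Among the fits that left out 1 animal, COL9A3 passed as higher in 2018 only without 549.

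The main heart collagens did not pass the test. COL1A1 was at medians of 71.8 CPM in the earlier group and 43.6 CPM in 2018 (log2 difference -0.60 ± 0.39, SE; edgeR adjusted p = 0.294), and COL3A1 at 136 and 87.9 CPM (-0.24 ± 0.37, SE; edgeR adjusted p = 0.687). Of the 8 network genes tested 0 passed in edgeR or DESeq2, and 1 had an unadjusted p under 0.05 in edgeR. RNA quality differed with the year: the median RIN was 6.2 in the earlier group and 5.4 in 2018, and the highest mitochondrial share 34.98% and 60.1%. With the mitochondrial share as a further covariate, chosen after seeing the data, COL7A1 (1.51) and COL2A1 (-2.04) kept their calls and the other 4 lost them. Calls fell over all genes too, to 441 higher and 89 lower of 16678, from 1775 and 761 of 15790 in the first fit. Among the 21 Yerkes animals alone, of these 6 genes only COL7A1 passed, while of 16028 genes 308 were higher and 25 lower. The 5 animals of highest mitochondrial share (537, 558, 529, 4X0339 and Little_R) were all of the 2018 group. Of these, 537, 558, 529 and Little_R were the highest 2018 animals for COL1A1, COL1A2 and COL6A3. Leaving them out thus lowers the 2018 level of these genes by itself. Without the 5, another choice made after seeing the data, COL1A1, COL1A2 and COL6A3 passed the test as lower in 2018. COL5A3 and COL19A1 lost their calls. Of 15843 genes 969 were higher and 468 lower in that fit.

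Genes of collagen synthesis and handling were tested from a list of 47 (hydroxylases, chaperones, processing proteases, crosslinking enzymes, fibril-binding proteoglycans and receptors). Between years 4 were higher in 2018 and 4 lower, shares that lay near those of all genes (11.2% and 4.82%). The higher genes were SERPINH1 (log2 difference 1.85 ± 0.65, SE; edgeR adjusted p = 0.0450), the collagen chaperone of the endoplasmic reticulum, P4HA3 (1.38), a prolyl 4-hydroxylase subunit, BMP1 (1.04), which cleaves the C-propeptide, and P3H1 (0.56), a prolyl 3-hydroxylase. The lower genes were the collagen receptors LAIR1 (-1.13), DDR1 (-0.53) and ITGB1 (-0.39), and TMEM38B (-0.54), a channel of the endoplasmic reticulum. Marker sums of other cells were not tested against year. Macrophage markers summed to a median of 101 CPM in the earlier group and 45.2 CPM in 2018, and fibroblast markers to 1029 and 920 CPM. The ranges overlapped between the groups for both lists. With the fibroblast marker sum as a covariate, added after seeing the data, all 6 collagen calls were kept. COL9A3 was added as higher, and COL1A1 and COL6A3 as lower. Of 17187 genes 2543 were higher and 1532 lower in that fit.

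**Figure D2:**
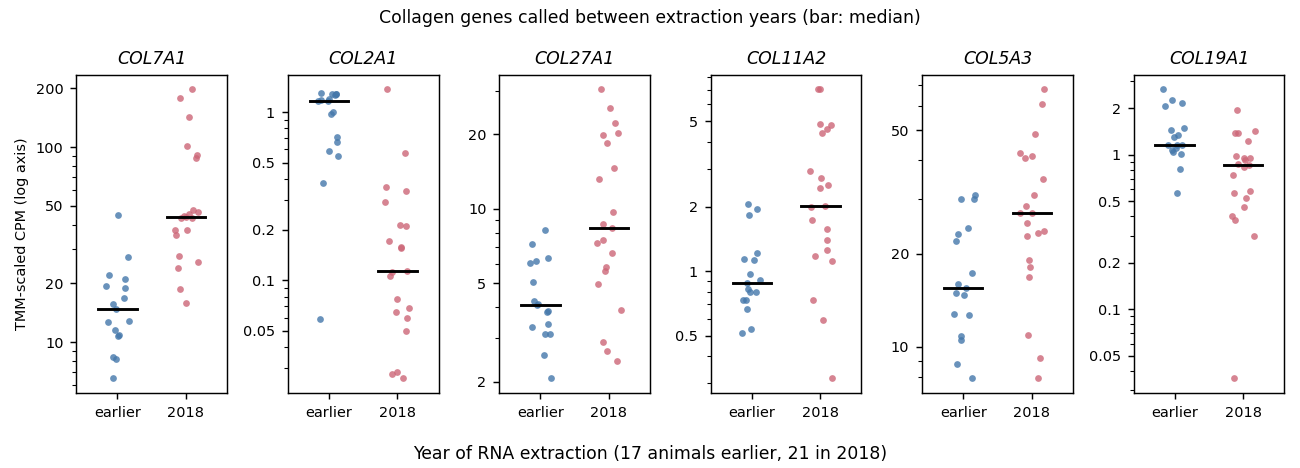
TMM-scaled CPM (log axis) of the 6 collagen genes that passed the test between extraction years, 1 point per animal (17 earlier, 21 in 2018), with a bar at the median. COL7A1 has 9 points of 2018 above all earlier points, COL2A1 has 1 low point in the earlier group and 1 high point in 2018, and the groups overlap in every panel.

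Sex was the second term of the same fit. Fibrillar genes lay higher in males at the median, at a class sum of 451 CPM against 239 CPM in females, but no collagen gene passed the test. Across all genes 0.215% did. By edgeR 0 of 37 members were called and 17 had an unadjusted p under 0.05, compared with 1330 of 15790 genes. The log2 difference was positive (higher in males) for 30 of 37 collagen genes with a median of 0.54, and for 7763 of all genes with a median of 0.00. All 10 fibrillar genes tested were positive, and 7 of them had an unadjusted p under 0.05. Many of these genes moved together across animals (r = 0.953 for COL1A1 with COL1A2, 0.957 for COL3A1 with COL5A2). Such counts of genes, here and for RIN and age below, are thus not counts of independent results.

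COL3A1 was at 18.8 to 417 CPM in females (median 73.3) and at 39.9 to 611 CPM in males (median 150), with 13 of 16 males above the female median. The log2 difference of 1.03 ± 0.37 (SE) had an edgeR adjusted p of 0.348. COL15A1, a proteoglycan collagen beside basement membranes of muscle, had a log2 difference of 0.87 ± 0.26 (SE; edgeR adjusted p = 0.206). COL23A1, a transmembrane collagen, was the one gene with an unadjusted p under 0.05 that was lower in males, at -0.70 ± 0.32 (SE; edgeR adjusted p = 0.549). COL4A5 and COL4A6 lie on the X chromosome. Their medians were 13.02 and 2.06 CPM in females and 12.6 and 1.15 CPM in males, and neither had an unadjusted p under 0.05.

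COL9A1 came nearest to the threshold. It was at 0 to 0.653 CPM in females (median 0.109) and at 0.0200 to 8.97 CPM in males (median 0.288), with a log2 difference of 2.55 ± 0.61 (SE; edgeR adjusted p = 0.0640). Most of the males lay within the female range. Without 549, a male whose chamber markers stood apart, the difference was 1.57 (edgeR adjusted p = 0.375), whereas leaving out 495, 4X0267, 4x523 or 554_2 brought it past the threshold. DESeq2 called 2 genes, COL9A1 (adjusted p = 0.00230) and COL24A1 (adjusted p = 0.0432), a minor fibrillar collagen, for which edgeR gave 1.31 ± 0.37 (SE; adjusted p = 0.164). With RIN as a covariate COL11A1 passed (adjusted p = 0.0474), a gene that the filter of the first fit had left out.

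Fibroblast markers summed to a median of 825 CPM in females (314 to 5526) and 1214 CPM in males (593 to 4614), a difference that was not tested. With that sum as a covariate, added after seeing the data, 8 of 43 collagen genes had an unadjusted p under 0.05 and 0 were called by edgeR. The median difference was 0.25 (0.02 over all genes). More low genes passed the filter here than in the first fit, which tested 37, so the counts and medians of the 2 fits are over different genes. COL1A1 went from 0.92 to 0.39 and COL3A1 from 1.03 to 0.57 on the log2 scale. The part of fibroblast content in the sex difference was not tested beyond this. Other attributes differed between the sexes too. Median age at death was 35 years in females and 26.5 in males, and median RIN 6.25 and 5.65. Atrial markers summed to a median of 174 CPM in females and 607 CPM in males. The part of age and of atrial markers in the sex difference was not tested. A sex by year term, added after seeing the data, called 0% of 16293 genes by edgeR. Among collagen genes 2 had an unadjusted p under 0.05 for it, COL6A6 (-2.32, adjusted p = 0.9997) and COL22A1 (3.35, adjusted p = 0.9997). COL6A6 was highest in 549, a male of the earlier group, and COL22A1 in 537, a male of 2018. The term was not fitted without these animals.

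RNA integrity and age gave no call. For RIN, with year and sex as covariates, edgeR called 0% of 16462 genes. Of 41 collagen genes 0 were called, 12 had an unadjusted p under 0.05 (2276 of all genes) and 34 had a positive slope. COL6A3, the long chain of type VI filaments, had a slope of 0.23 ± 0.08 log2 units per RIN unit (SE; edgeR adjusted p = 0.204) and COL14A1 one of 0.30 ± 0.11 (SE; edgeR adjusted p = 0.214), while COL7A1 had a slope of -0.18 ± 0.08. DESeq2 also called 0 collagen genes, with 13 of 38 at an unadjusted p under 0.05. It called 82 of all genes with a positive and 86 with a negative slope. By DESeq2 32 of the 38 slopes were positive, with a median of 0.096 against 0.0038 over all genes. Without 537 and Little_R only 2 collagen genes had an unadjusted p under 0.05 in edgeR, and the median slope was 0.073 against -0.0073 over all genes.

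For age, in the 34 animals with an age, edgeR called 0% of 16309 genes. Of 39 collagen genes 0 were called by edgeR and 0 by DESeq2, and 0 (edgeR) and 1 (DESeq2) had an unadjusted p under 0.05. The smallest p belonged to COL7A1, with -0.25 ± 0.15 log2 units per 10 years (SE; edgeR adjusted p = 0.657). Slopes were positive for 12 of 39 collagen genes and for 7327 of all genes.

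The collagen classes were then set against the summed CPM of cell type markers, with year and sex as covariates and slopes in log2 units per SD of the log2 marker sum. Types I, III, V, VIII, XII and XIV and the type VI chains COL6A2 and COL6A3 rose with fibroblast markers and fell with cardiomyocyte markers. By contrast, 5 genes of several classes, COL4A5, COL4A6, COL19A1, COL21A1 and COL23A1, did the opposite. No collagen gene is itself on a marker list. Each sum is weighted towards the abundant genes of its list. DCN had a median of 573 CPM in the fibroblast list. In the activated fibroblast list THBS4 had a median of 127 CPM, POSTN 63.3 CPM and FAP 2.84 CPM. The filter on low counts depends on the model, and with these covariates it let through low genes that the fit by year (37 collagen genes) had left out. With fibroblast markers 24 of 43 collagen genes rose and 5 fell (all genes 23.1% and 23%). With cardiomyocyte markers 5 rose and 18 fell (all genes 25.8% and 27.9%).

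Among fibrillar genes 10 of 11 rose with fibroblast markers, all but COL2A1. COL11A1 is counted among the 10, although the fit by year had filtered it out. It had a median of 0.0904 CPM and was highest in 537, so its rise may rest on the libraries with the highest marker sums. The slope was 0.90 ± 0.11 (SE; edgeR adjusted p = 6.2e-08) for COL1A2, 0.79 ± 0.14 for COL1A1 and 0.75 ± 0.14 for COL3A1. The same 3 genes had slopes of -0.66, -0.69 and -0.58 with cardiomyocyte markers. FACITs were split. COL14A1, which binds fibrils in dense connective tissue, had a slope of 0.89 ± 0.10 (SE; edgeR adjusted p = 3.24e-08) and COL12A1 one of 0.84 ± 0.11 with fibroblast markers, whereas COL21A1 had -0.61 ± 0.15 and COL19A1 -0.47 ± 0.15. In 537 and Little_R, COL21A1 was at 4.89 and 2.03 CPM against a median of 22.4 CPM in the others, and COL14A1 at 101 and 107 CPM against 25.03 CPM. COL16A1 passed with no list.

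The network class was split as well. The type VIII chains rose with fibroblast markers (COL8A1 0.77 ± 0.11, COL8A2 0.69 ± 0.08, SE). COL4A1, a ubiquitous type IV chain, rose weakly (0.24 ± 0.10, SE; edgeR adjusted p = 0.0447), and its partner COL4A2 had 0.10 ± 0.08 (adjusted p = 0.304). COL4A5 and COL4A6, the chains of a specialised basement membrane network, had slopes of -0.36 ± 0.08 and -0.37 ± 0.15 with fibroblast and 0.40 ± 0.07 and 0.47 ± 0.13 with cardiomyocyte markers (SE). Of the beaded filament genes 3 of 4 rose with fibroblast markers, with COL6A3 at 0.70 ± 0.08. COL15A1 rose (0.50 ± 0.12) and COL18A1 had a slope of 0.04 ± 0.06. COL23A1 fell with fibroblast markers (-0.80 ± 0.16) and rose with cardiomyocyte markers (0.60 ± 0.17). COL7A1 and 11 other genes passed with no list.

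With the other lists fewer genes passed. With activated fibroblast markers (such as THBS4 and POSTN) 5 of 42 collagen genes rose and 0 fell (all genes 0.68% and 0.721%). The 5 were COL22A1 (1.08 ± 0.19, SE), COL3A1 (0.65), COL12A1 (0.61), COL8A1 (0.54) and COL5A2. With endothelial markers 11 of 42 rose and 3 fell (all genes 21.2% and 19.4%), with COL8A1 at 0.53 and COL19A1 at -0.55. With smooth muscle and pericyte markers 14 of 41 rose and 0 fell (all genes 9.28% and 3.47%), and with Schwann markers 0 of 41 passed in edgeR, 1 having an unadjusted p under 0.05 (all genes 0.00607% in each direction). Of the 47 genes of collagen handling, 31 rose and 2 fell with fibroblast markers (all genes 23.1% and 23%). With cardiomyocyte markers 3 rose and 33 fell (all genes 25.8% and 27.9%). DCN and LUM, counted among the 31, are also on the fibroblast marker list, so their rise with its sum was built in.

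The counts moved when the libraries that stood apart were left out, for all genes as for the collagens. Without 537 and Little_R, 18 collagen genes rose and 2 fell with fibroblast markers (of 16813 genes 1575 and 487), and 20 of the 29 calls were kept. With cardiomyocyte markers 3 rose and 14 fell (of 17106 genes 2696 and 4155). With endothelial markers 2 rose and 1 fell (of 16574 genes 1168 and 630). With activated fibroblast markers 2 rose and 0 fell (of 17106 genes 50 and 81), and 17 collagen genes had an unadjusted p under 0.05. With smooth muscle and pericyte markers 0 passed in edgeR while 14 had an unadjusted p under 0.05 (of 16574 genes 131 rose and 2 fell). COL22A1 went from -0.99 to 0.02 with cardiomyocyte markers. In 549 the activated fibroblast markers summed to 43.2 CPM, the second lowest of all animals, and the fibroblast markers to 2045 CPM. Without it, a choice made after seeing the data, 19 of 42 collagen genes rose with activated fibroblast markers in place of 5, the first 5 among them, while 532 of 16861 genes rose and 249 fell. With fibroblast markers 21 rose and 5 fell without 549, and COL5A3, COL6A6 and COL9A1 lost their calls. The years were also fitted apart, again after seeing the data. In the 2018 animals alone 21 of 40 rose and 5 fell with fibroblast markers (of 16687 genes 3467 and 3551). In the 17 earlier animals alone, where the fibroblast sum spanned 715 to 2045 CPM against 314 to 5526 CPM in 2018, edgeR called 0 collagen genes and 0 of all 16266 genes, and 10 collagen genes had an unadjusted p under 0.05.

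**Figure D3:**
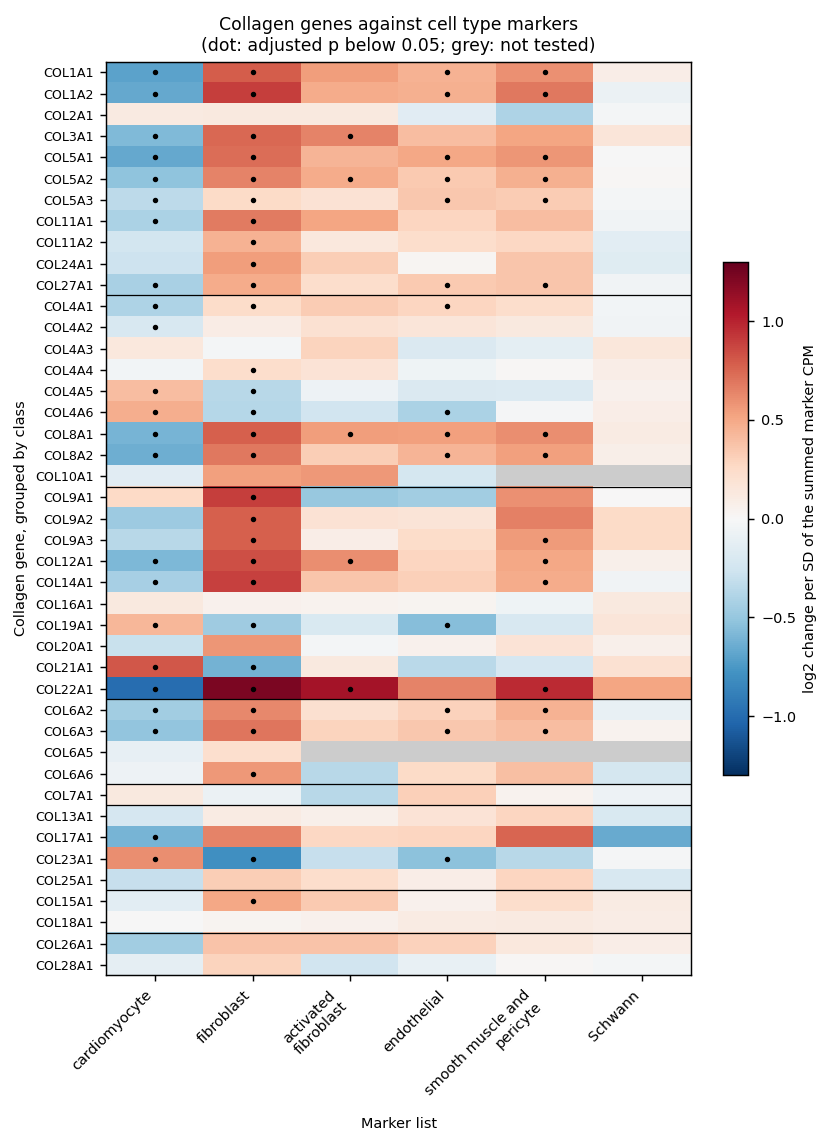
Slope of each collagen gene (rows, by class) with the summed level of 6 marker lists (columns), in log2 units per SD, with year and sex as covariates; a dot marks an edgeR adjusted p under 0.05 and grey a gene that was not tested. Fibrillar genes are blue for cardiomyocyte and red for fibroblast markers (10 of 11 with a dot), COL4A5, COL4A6, COL19A1, COL21A1 and COL23A1 carry the reverse colours, and the Schwann column holds no dot.

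Pairs of chains that join in 1 molecule or fibril, and the related multiplexins COL15A1 and COL18A1, which form separate molecules, were compared across animals on log2(CPM + 0.5). Of 18 pairs, 14 had both chains among the genes tested. All 14 correlations were positive, and 10 passed when the second chain was tested with limma against the first, adjusted over 15789 genes. The median correlation of COL1A1 with all genes was 0.00. COL1A1 and COL1A2, the chains of type I, had r = 0.953 and rho = 0.950 (n = 38 animals, two-sided permutation p = 1e-05 for each, the smallest that 100000 permutations can give; limma adjusted p = 3.87e-17). COL1A2 ranked 1 of all genes for COL1A1. The correlation was 0.965 within the earlier group, 0.947 within 2018 and 0.946 without the 2 animals farthest from the median of COL1A1. COL3A1 followed both type I chains (r = 0.943 and 0.955) and ranked 1 for COL1A2.

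COL3A1 and COL5A2, which are neighbouring genes in the RefSeq annotation, were each the other's nearest of all genes (r = 0.957, rho = 0.963, n = 38, permutation p = 1e-05 for each; 0.966 in the earlier group, 0.975 in 2018, 0.949 without 2). COL5A1 and COL5A2 had r = 0.889 (rho = 0.868), with COL5A2 at rank 6. COL5A3 was looser, at r = 0.561 with COL5A2 (permutation p = 0.00018; limma adjusted p = 0.00125) and rank 1092. Many genes rose with these chains, so ranks are given beside the calls: 13.1% of all genes passed as rising with COL1A1, 16.3% with COL1A2, 12.7% with COL3A1, 25.5% with COL5A1 and 21.5% with COL5A2.

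Type IV chains are encoded in head-to-head pairs. COL4A1 and COL4A2 had r = 0.831 and rho = 0.812 (n = 38, permutation p = 1e-05 for each; limma adjusted p = 5.4e-07), with 0.951 in the earlier group, 0.714 in 2018 and 0.802 without 2, and COL4A2 ranked 3 for COL4A1 (12.7% of genes rose with it). COL4A3 and COL4A4 had r = 0.569 (rho = 0.619, permutation p = 0.00025 and 8e-05) and did not pass in limma (adjusted p = 0.0592), where 0.146% of genes rose with COL4A3. COL4A4 was still at rank 27. Animal 4X0354 lay off both pairs. There the ratio of COL4A3 to COL4A4 was 10.69 against a median of 2.13, and that of COL4A1 to COL4A2 was 2.13 against 0.84. Its RIN was 3.3, its mitochondrial share 42.99%, its atrial marker sum 8113 CPM (median of all animals 272) and its endothelial marker sum 1784 CPM (median 834), and their part in the ratios was not tested. Without it r was 0.899 for COL4A1 and COL4A2 and 0.736 for COL4A3 and COL4A4, which is a description, since the animal was chosen for its ratios in these pairs.

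COL4A5 and COL4A6 had r = 0.706 (rho = 0.665, n = 38, permutation p = 1e-05 and 2e-05; limma adjusted p = 1.39e-05), at 0.587 in the earlier group, 0.741 in 2018 and 0.651 without 2. COL4A6 ranked only 305, and 24.4% of genes rose with COL4A5. COL4A3 and COL4A5, which share a molecule in specialised basement membranes, had r = 0.370 (permutation p = 0.0222; limma adjusted p = 0.340). The type VIII chains had r = 0.736 (rho = 0.770, n = 38, permutation p = 1e-05 for each; limma adjusted p = 1.28e-05), with COL8A2 at rank 69 and 12.9% of genes rising with COL8A1. COL9A2 and COL9A3 had r = 0.468 (permutation p = 0.0034; limma adjusted p = 0.0493, with 4.48% of genes rising with COL9A2), and did not pass without 549 (limma adjusted p = 0.0706). COL9A1 and COL9A2 had r = 0.208 (permutation p = 0.179; limma adjusted p = 0.780), with rho = 0.0209 and -0.131 without 2, where 0.861% of genes rose with COL9A1. COL15A1 and COL18A1 had r = 0.147 (permutation p = 0.378; limma adjusted p = 0.644), and 4.53% of genes rose with COL15A1.

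Chain ratios varied far less than chain levels for type I. Between the highest and the lowest animal COL1A1 differed 38.2-fold and COL1A2 21.3-fold, whereas their ratio differed 3.70-fold, from 0.28 to 1.03 with a median of 0.51. The ratio of COL5A1 to COL5A2 ran from 0.51 to 2.59 (median 1.03). Ratios of other pairs reached further. The ratio of COL4A5 to COL4A6 differed 11.5-fold between the extreme animals, while the chains differed 5.14-fold and 16.6-fold. That of COL8A1 to COL8A2 differed 12.2-fold, from 0.98 to 11.97 (median 5.65), while the chains differed 38.8-fold and 22.8-fold. The highest COL4A5 to COL4A6 ratio and the highest COL5A1 to COL5A2 ratio both came from 4X0339, whose RIN of 2.5 was the lowest of all animals. COL4A6 was at its lowest level there, 0.287 CPM, so that ratio rests on few counts.

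**Figure D4:**
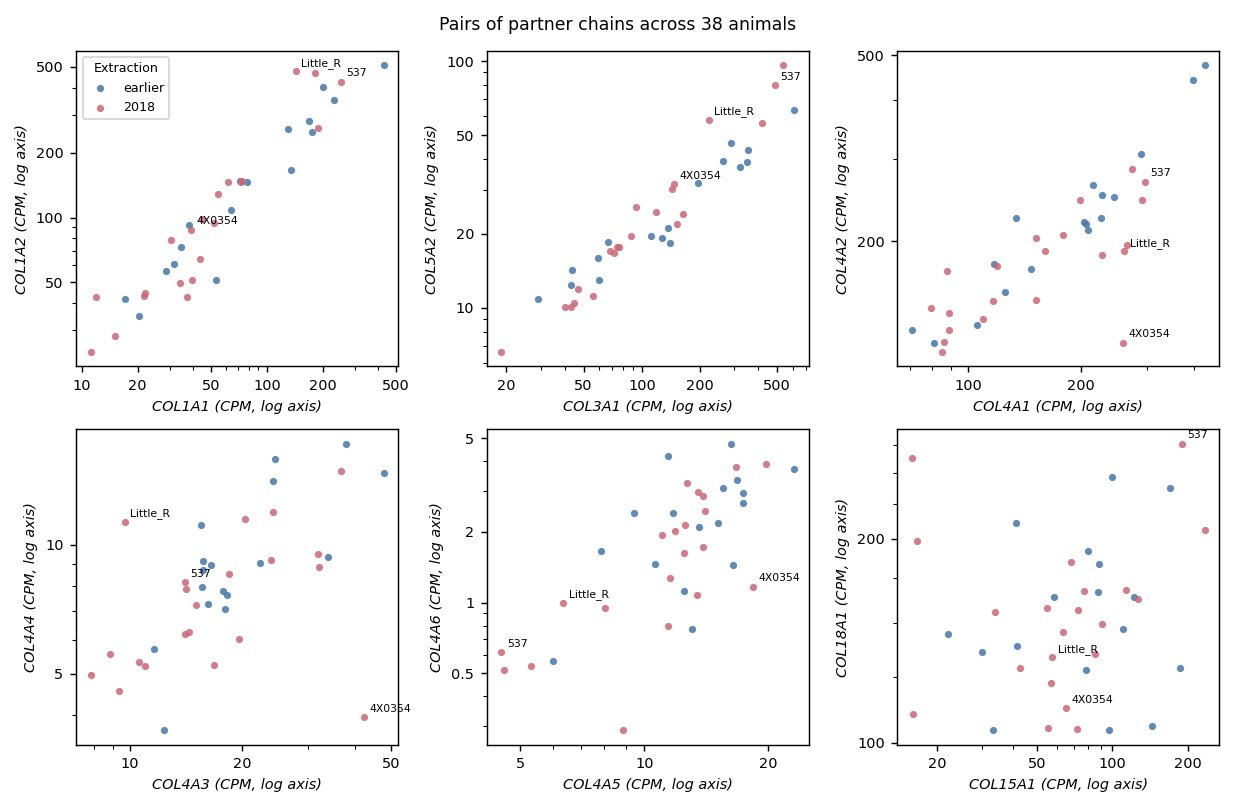
CPM of 5 pairs of chains that share a molecule or fibril and of COL15A1 with COL18A1, which form separate molecules, both on log axes, 1 point per animal coloured by extraction year, with 537, Little_R and 4X0354 named. COL1A1 with COL1A2 (r = 0.953) and COL3A1 with COL5A2 (r = 0.957) lie near a line, 4X0354 lies off both type IV pairs COL4A1 with COL4A2 and COL4A3 with COL4A4, and COL15A1 with COL18A1 (r = 0.147) forms a cloud.

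Outside the collagens, the 5 genes whose level was most like that of each of 4 members were listed from 14376 genes with a symbol, by Pearson's r over the 38 animals, as a description. For COL1A1 these were BGN (0.898), FN1 (0.890), CCDC80 (0.881), DPYSL3 (0.879) and TGFB3 (0.876). For COL4A1 they were LOXL2 (0.921), PXDN (0.849), TNC (0.823), FN1 (0.805) and SERPINE2 (0.797). FN1 was the one gene in both sets. For COL6A3 they were PDGFRA (0.833), NID1 (0.821), SPON1 (0.820), EMILIN1 (0.808) and THBS2 (0.801). For COL14A1 they were BICC1 (0.913), ASPN (0.901), LUM (0.898), OGN (0.894) and ANTXR1 (0.889). PDGFRA and LUM are on the fibroblast marker list, TNC on that of activated fibroblasts, and BGN, LOXL2 and LUM on the list of collagen handling.

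Variability between individuals was computed last, with a measure modeled on the study's. The inputs differ from the study's: counts of annotated genes in 38 animals were used here, with the orthologous exon total as offset and no effective gene length. The measure is the negative binomial overdispersion of a gene across animals, on the natural log scale, minus the trend of all genes at the same mean. A gene above 0 varied more between hearts than genes of like mean. Of 33 collagen genes that passed the level filter, 28 lay above 0, with a median of 1.10, and 22 exceeded 0 by more than 2 SE. Over 13121 genes 44.9% lay above 0 and the median was -0.12. The filter asked for 6 CPM in at least 1 animal, so low genes entered through their highest animal and the 33 are not all members.

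All 9 fibrillar genes measured lay above 0, with a median of 1.57. COL1A1 had the highest value of the members at 2.18 ± 0.15 (SE from drawing the animals anew 1000 times), at percentile 98.4 of all genes. COL1A2 (2.09 ± 0.13), COL3A1 (2.08 ± 0.15), COL7A1 (2.08 ± 0.19), COL5A1 (1.98 ± 0.21), COL12A1 (1.91 ± 0.35), COL14A1 (1.90 ± 0.21) and COL8A1 (1.81) followed, and these neighbours did not differ beyond their errors. Network genes were lower, with 6 of 8 above 0 and a median of 0.60, and FACITs had 6 of 8 above 0 and a median of 0.97. COL4A1 was at 1.10 ± 0.15 and COL4A2 at 0.51 ± 0.21. The 5 genes below 0 were COL4A5 (-0.26 ± 0.22), COL9A2 (-0.22 ± 0.38), COL4A6 (-0.20 ± 0.20), COL18A1 (-0.07 ± 0.28) and COL9A3 (-0.01 ± 0.30), of which only COL4A5 lay further than 1 SE from the trend.

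Values of low genes rested on single animals. COL9A1 was at 0.63 ± 0.75 and ranged from -0.40 to 0.66 on leaving out 1 animal at a time, and COL22A1 was at 1.17 ± 0.78 and ranged from 0.11 to 1.201. COL1A1 ranged only from 2.08 to 2.20. Without 537 and Little_R the count stayed at 28 of 33, with a median of 1.14, and within each year the median was 1.25. Genes of collagen handling lay above the trend too, with 40 of 45 above 0 and a median of 0.80, and so did every marker list. Fibroblast markers had 8 of 8 above 0 and a median of 1.81, activated fibroblast markers 8 of 8 and 2.10, macrophage markers 8 of 8 and 1.68, atrial markers 5 of 5 and 3.08, endothelial markers 7 of 7 and 0.61, and cardiomyocyte markers 9 of 10 and 0.58.

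**Figure D5:**
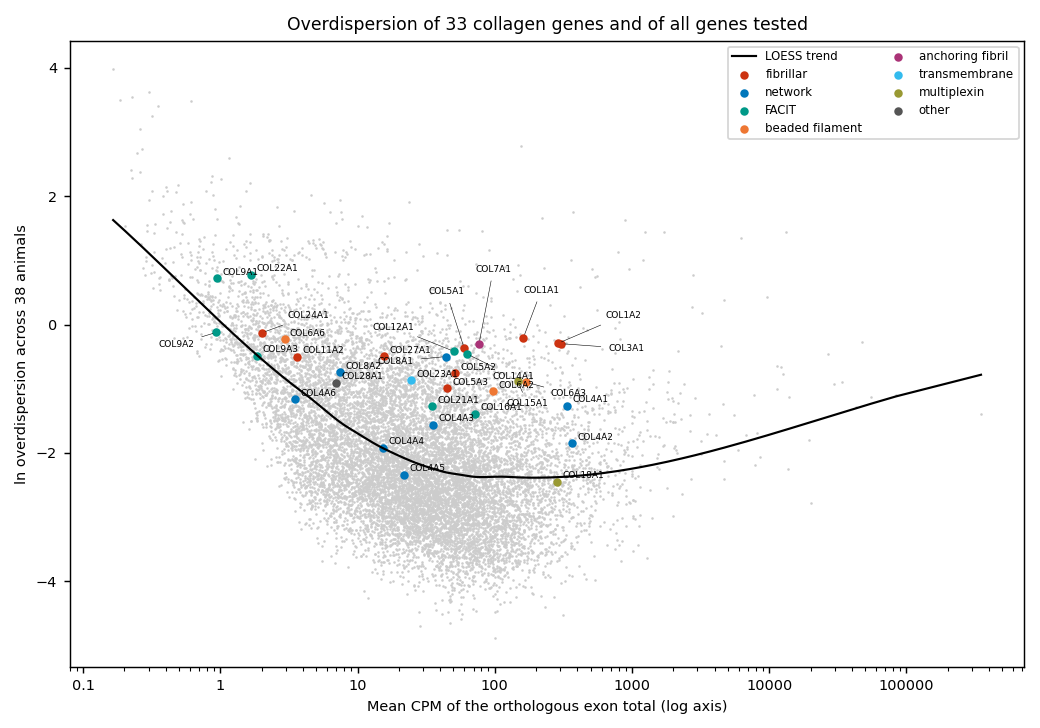
Natural log of the overdispersion across 38 animals against mean CPM of the orthologous exon total (log axis) for 13121 genes (grey) with the LOESS trend (line) and 33 collagen genes coloured by class. The fibrillar genes COL1A1, COL1A2 and COL3A1 lie about 2 above the trend (2.18, 2.09 and 2.08), and COL18A1 and COL4A5 lie on or under it.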

How the data were processed

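Gene counts were made by the authors with STAR 2.6.1b on Pan_tro_3.0 and Ensembl annotation. They also deposited counts over orthologous exons (featureCounts 1.6.3), used here as totals, and a normalized matrix whose values are a score: log CPM standardized per gene and then quantile-normalized per animal (37 animals, 30 collagen genes). Per the labels the libraries came from polyA RNA with a kit that does not mark strand, so reads of a gene and an overlapping or antisense partner cannot be told apart. No other gene table was used, and 52 further per-sample columns were left out. No columns were identical, and the labels give 1 library per animal. Extraction date, sex, age and RIN came from the study's sample table, matched by animal name, and not from the labels.

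Counts were tested with edgeR 4.0.16 (TMM, filterByExpr, quasi-likelihood test) and adjusted by Benjamini-Hochberg over all genes at 0.05; limma 3.58.1 was used for chain pairs on log2(CPM + 0.5), and MASS for overdispersion with LOESS (degree 1, span 0.75) on genes with 6 CPM in at least 1 animal. Genes named beyond the collagens were the 5 nearest to COL1A1, COL4A1, COL6A3 and COL14A1, and list genes that passed. Chain pairs with COL6A1, COL6A5 or COL11A1 were not tested. Alternatives were DESeq2 1.42.0, no filter, another library size, added covariates, subsets and leaving out animals. Scripts were tested on simulated data. The collagen genes, lists and tests were chosen with earlier results of these data known. P-values measure the spread between animals with 1 library each, some of them relatives. For the year comparison they do not measure the spread between extraction dates, since the 2018 group had 1 date and dates were not modeled.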

Additional observations from a re-analysis of the deposited data

How the results depend on the processing

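Among the 154 summary values recomputed under other settings, 122 held within 1.5 times of the first value or within its error. Between years, the number of collagen genes higher (4) was 1 in Yerkes animals and 1 with the mitochondrial share added, and the number lower (2) was 1 without the filter, 1 with RIN added, 0 in Yerkes animals, 1 with the mitochondrial share added, 4 without the 5 highest mitochondrial shares and 4 with fibroblast markers added. Leaving out 1 animal gave 4 to 5 higher and 1 to 2 lower. For sex the number was 2 by DESeq2, 1 with RIN added and 0 to 1 on leaving out 1 animal. Without 537 and Little_R the numbers rising and falling were 3 and 14 for cardiomyocyte, 18 and 2 for fibroblast, 2 and 0 for activated fibroblast, 2 and 1 for endothelial, and 0 and 0 for smooth muscle and pericyte markers; without 549 19 rose with activated fibroblast markers, with RIN added 3 rose with activated fibroblast and 7 with smooth muscle and pericyte markers, 9 without the filter, and 5 fell with endothelial markers in 2018 alone. In the earlier group alone 2 rose and 2 fell with cardiomyocyte markers, and with the other lists 0 passed by edgeR, with 4 to 12 at an unadjusted p under 0.05. Pairs passing numbered 6 of 10 measured in the normalized matrix and 6 of 14 in the earlier group alone, and the median dispersion was 1.48 among genes with a median of 6 CPM.

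Some single slopes changed sign in the earlier group alone: with cardiomyocyte markers COL11A1 (0.34), COL14A1 (0.47), COL19A1 (-0.17) and COL22A1 (0.36, and 0.019 without 537 and Little_R); with fibroblast markers COL19A1 (0.67), COL4A6 (0.24), COL4A1 (-0.47) and COL5A3 (-0.14); and with endothelial markers COL8A2 (-0.19), COL8A1 (-0.19), COL1A2 (-0.35), COL5A2 (-0.21), COL6A3 (-0.17), COL27A1 (-0.21), COL5A1 (-0.17), COL1A1 (-0.43) and COL6A2 (-0.18). The sex difference changed sign for COL6A6 in 2018 alone (-0.15) and for COL22A1 in the earlier group alone (-0.23). The cause was not tested. Of 1061 values recomputed for single genes and pairs, 817 kept their direction and side of the threshold or moved by less than their error, 170 no longer passed, 5 passed anew and 49 values without a test moved further. Leaving out the filter moved the median of all genes between years by 0.14 on the log2 scale.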
